A study of Zea mays with 10 samples.

Results

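The gene set asked for here is that of transcripts absent from maize anthers before meiosis, abundant in whole anthers at prophase I and nearly absent from the male germ cells isolated at that stage. It was chosen from measured values. A gene model had to be listed in all 3 deposited tables, lie below 1 in both premeiotic B73 libraries, reach 20 TPM (transcript abundance per length, scaled to a fixed total in each library) in both B73 prophase I anther libraries with replicate 2 under 5 times replicate 1, and lie below 5 TPM in all 4 germ cell libraries. Of 22377 gene models in all 3 tables, 1 met these conditions, Zm00001d031971, so the data hold a single gene and not a group of genes under this definition. The levels that chose it are given as a description, with no test. The ms28 anther libraries are the ones the conditions did not use.

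RNA was measured in 10 libraries, 2 in each of 5 groups: prophase I anthers of ms28, prophase I anthers of B73, prophase I germ cells of ms28, prophase I germ cells of B73, and premeiotic anthers of B73. B73 is a maize inbred, the source of the reference assembly, and ms28 plants are male sterile and carry a mutated ARGONAUTE gene. The labels leave out whether ms28 was bred into B73, whether replicates are separate plants and how many plants were pooled, so a p-value measures the spread between libraries, which may be technical. Per the labels' protocols, plants grew in a field or a greenhouse, and libraries followed Smart-seq with small changes. Smart-seq makes cDNA from little RNA with a template switch, amplifies it by PCR and in its usual form keeps no strand.

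In the anther, wall layers of somatic cells surround the germ cells that enter meiosis. The innermost wall layer, the tapetum, nourishes the germ cells and later supplies material for the pollen coat, and many transcripts of the anther wall are known to appear around the onset of meiosis. Grass anthers also make phased small RNAs, phasiRNAs, with an early class known from the time before meiosis and a later class known from meiosis onward, and the series asks which transcripts the early class acts on. Zm00001d031971 is an identifier of the B73 RefGen_v4 annotation. The reference gene table used here is of another assembly and matched 0 of the 43789 gene models, so no name, position or function is given for it.

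Zm00001d031971 was abundant in B73 anthers at prophase I and below 10 TPM in the other prophase I libraries. In ms28 anthers it stood at 0.08 and 9.03 TPM, above 1.85% and 59.8% of the 22377 gene models. B73 anther replicates 1 and 2 read 298 and 212 TPM for it, above 97.5% and 96.6% of the gene models. The germ cell values were 0 and 0.564 TPM in ms28 and 0.0408 and 2.73 TPM in B73. In B73 before meiosis the deposited values were 0.179 and 0.563, in a table whose header states no unit. Those values lay above 5.94% and 12.2% of the gene models. The lowest B73 anther value was 23.5 times the highest ms28 anther value and 77.6 times the highest germ cell value.

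**Figure D1:**
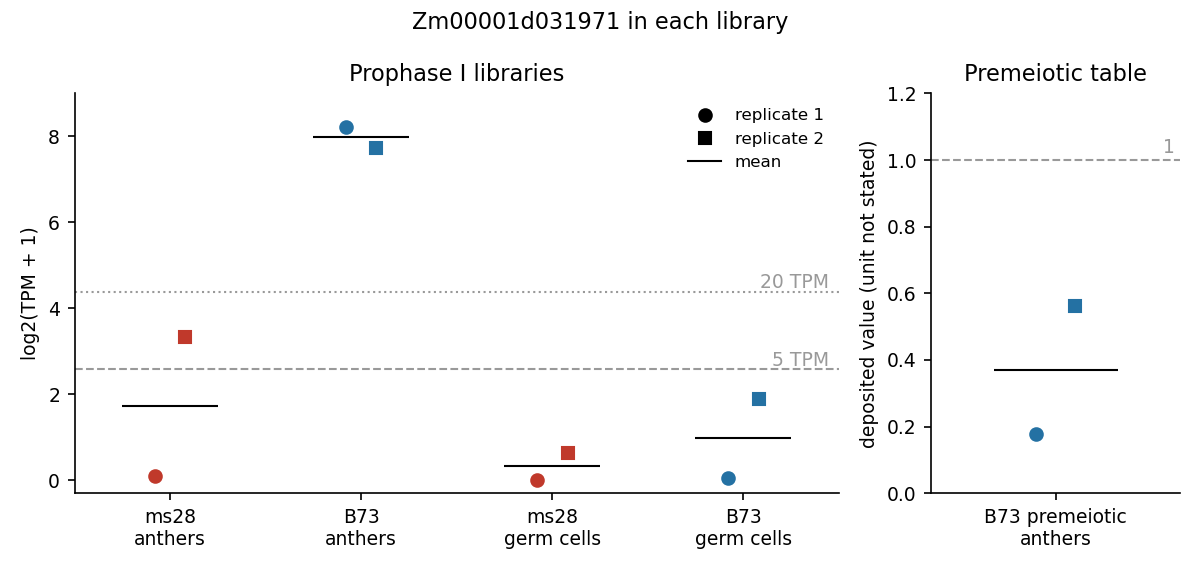
Level of Zm00001d031971 in each library. The left panel shows log2(TPM + 1) in the 8 prophase I libraries, ms28 left of B73, and the right panel the deposited premeiotic values on their own scale. Circles are replicate 1, squares replicate 2 and black lines group means, and dashed or dotted grey lines mark the 5 TPM, 20 TPM and premeiotic thresholds. Both B73 anther points lie near 8 on the log2 scale, and every other prophase I point lies below the 20 TPM line.

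The prophase I group means were 0.282 ± 0.399 TPM in ms28 germ cells and 1.39 ± 1.90 TPM in B73 germ cells, then 4.55 ± 6.33 TPM in ms28 anthers and 255 ± 60.3 TPM in B73 anthers (SD, n = 2 each), from the lowest to the highest. The lower 3 of these groups overlapped each other, so their order does not stand out from the spread between libraries. The 2 libraries of a group were far apart wherever the gene was low. Replicate 2 was 113 times replicate 1 in ms28 anthers and 67.1 times in B73 germ cells, and 3.15 times in premeiotic anthers. In ms28 germ cells it was listed at 0 in replicate 1. In B73 anthers replicate 1 was the higher, by 1.40 times. In germ cell replicate 2 the gene stood above 11.4% of the 22377 gene models in ms28 and above 33.4% in B73. In germ cell replicate 1 it was at 0 in ms28 and above 1.72% in B73. No counts were used here that would tell how many reads stand behind the low values.

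The premeiotic and B73 anther conditions alone left 67 gene models. They were met by 68 before the condition on the ratio of the replicates, which removed 1. None of the gene models that met them was missing from the germ cell table. Within these 67, the germ cell condition left Zm00001d031971 alone. The other conditions set it apart as well: 134 gene models failed the premeiotic condition alone and 2944 the B73 anther level alone, against 66 for the germ cell condition. The highest germ cell value of the other 66 ran from 7.24 to 2528 TPM with a median of 31.2 TPM. Of these, 50 reached 5 TPM in all 4 germ cell libraries. In B73, the mean of Zm00001d031971 in germ cells was 0.544% of its mean in anthers. Among the other 66 this share had a median of 22.2% and a lowest value of 1.52%, and 16 were higher in germ cells than in anthers. The germ cell and B73 anther values chose the gene and left out the 66, so this contrast follows in part from the choice. By mean level in B73 anthers Zm00001d031971 ranked 5 of the 67. These shares compare tables that were deposited separately, so tissue and table cannot be told apart in them. In bulk RNA, a low share in germ cells also does not separate fewer cells of a type from less RNA per cell. The maize symbols listed for tapetum (18), other wall and patterning genes (3), meiocytes (14) and pollen wall and lipid export (8) matched 0 features of the tables, so the somatic origin in the set's description was not checked against markers and rests on the low germ cell values alone.

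**Figure D2:**
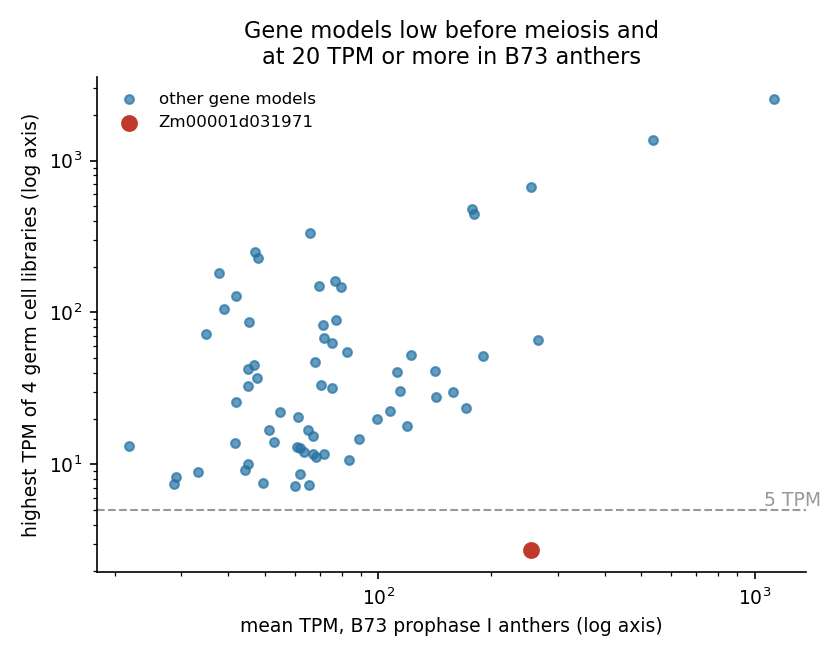
Germ cell level against anther level for the 67 gene models that met the premeiotic and B73 anther conditions. The x axis is the mean TPM of the 2 B73 anther libraries and the y axis the highest TPM of the 4 germ cell libraries, both on log axes. The dashed line marks 5 TPM, and Zm00001d031971, at 2.73 TPM, is the 1 point below it.

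The premeiotic, anther and germ cell conditions had gene models just outside them. Failing the germ cell condition alone, Zm00001d052094 reached 7.24 TPM and Zm00001d039011 reached 7.30 TPM in their highest germ cell libraries. On the premeiotic side, 134 gene models failed that condition alone. The closest were Zm00001d013039, with premeiotic values of 0.966 and 1.24, and Zm00001d050323, with 1.31 and 0.981. On the anther side the closest were Zm00001d018106, at 62.0 and 19.9 TPM in B73 anthers, and Zm00001d002035, at 19.9 and 24.9 TPM. No gene model failed the replicate ratio alone. Inside the limits, Zm00001d031971 lay at up to 0.563 before meiosis, at 212 TPM or more in B73 anthers and at up to 2.73 TPM in germ cells, so it cleared the anther limit by 10.6 times, the premeiotic limit by 1.78 times and the germ cell limit by 1.83 times.

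The number of gene models that met the definition rested on single libraries. Without B73 germ cell replicate 2 it was 4, the others being Zm00001d002872, Zm00001d003052 and Zm00001d035013. Zm00001d035013 had 0 TPM in either germ cell library of ms28, against 0.674 TPM in B73 germ cell replicate 1 and 8.84 TPM in replicate 2. Its anther values were 0 and 0.26 TPM in ms28, against 37.0 and 29.5 TPM in B73. Without B73 anther replicate 1 the number was 13 and without replicate 2 it was 37, both with no condition on the ratio of the replicates. Their log2 changes were taken from the fit as reported, which kept both B73 anther libraries. The median log2 change, ms28 minus B73 anthers, was 1.68 for the 13 and -1.55 for the 37. That fit called 5 of the 13 lower and 0 higher, and 9 of the 37 lower and 0 higher. Over all fitted features 7.31% were called lower and 0.507% higher. Leaving out a library only drops conditions, so Zm00001d031971 was in each of these sets by construction and the number could not fall.

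The comparison of ms28 with B73 anthers asks how the gene differs between the genotypes, with ms28 anther values that played no part in choosing it. The ms28 germ cell values did play a part, and whole anthers hold germ cells. The gene stood at 0.08 and 9.03 TPM in the ms28 anthers, against 298 and 212 TPM in the B73 anthers. Both ms28 values lay below both B73 values. On the log2(TPM + 1) scale the means were 1.72 ± 2.27 in ms28 and 7.98 ± 0.34 in B73 (SD, n = 2 each), and the log2 change was -6.26 (SE 0.95). The gene was lower in ms28 anthers by limma-trend with Benjamini-Hochberg adjustment over 20892 features (adjusted p = 0.0176). The spread behind this p was pooled over the anther and germ cell libraries. The definition held the germ cell libraries below 5 TPM, so the p is not independent of the choice of the gene. With the anther table fitted by itself the adjusted p was 0.0946 by limma. The log2 change of -6.26 rests on the same anther values in that fit, so it could not move. The mean in ms28 was 1.79% of the mean in B73. The median log2 change of all fitted features was -0.48, so the fall was much larger than the shift of the whole comparison.

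Calls of this kind were not rare. Of all fitted features 7.31% were called lower in ms28 anthers and 0.507% higher, and 68.7% had both ms28 libraries below both B73 libraries. The B73 side of the contrast was used to choose the gene, which by itself favours a lower value in the other group. Among the 6111 gene models that met the same B73 anther conditions, 7.59% were called lower, 0.311% higher, 63.3% had both ms28 libraries below both B73 libraries, and the median log2 change was -0.42. Of those 6111, 4 had a lower log2 change than Zm00001d031971. An exact two-sided permutation test of the 2 ms28 against the 2 B73 anther libraries gave p = 0.333, the smallest p this design allows.

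The direction was the same in every setting tried, and the adjusted p lay on either side of the threshold. Settings that kept the anther values as they were, such as leaving out a germ cell library, could not alter the log2 change. After median centring of the libraries the log2 change was -5.65 (adjusted p = 0.0253), where 0.584% of all fitted features were called lower. Quantile normalization gave -6.15 (adjusted p = 0.0293), with 0.814% called lower. It missed the threshold when limma was fitted to the anther table by itself (adjusted p = 0.0946), where 0.239% were called lower, and with a pseudocount of 0.1 (log2 change -7.62, adjusted p = 0.0535), where 5.43% were. It also missed it without B73 anther replicate 1 (0.0502), ms28 anther replicate 1 (0.0534), ms28 germ cell replicate 1 (0.0539) or ms28 germ cell replicate 2 (0.0543), these being adjusted p values from limma. In those fits 1.24%, 0.192%, 0.476% and 0.475% of all features were called lower, in the same order. The size rested on the ms28 libraries. Without ms28 anther replicate 1 the log2 change was -4.65, and without ms28 anther replicate 2 it was -7.87. A fit that leaves a group with 1 library takes its spread from the other groups.

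**Figure D3:**
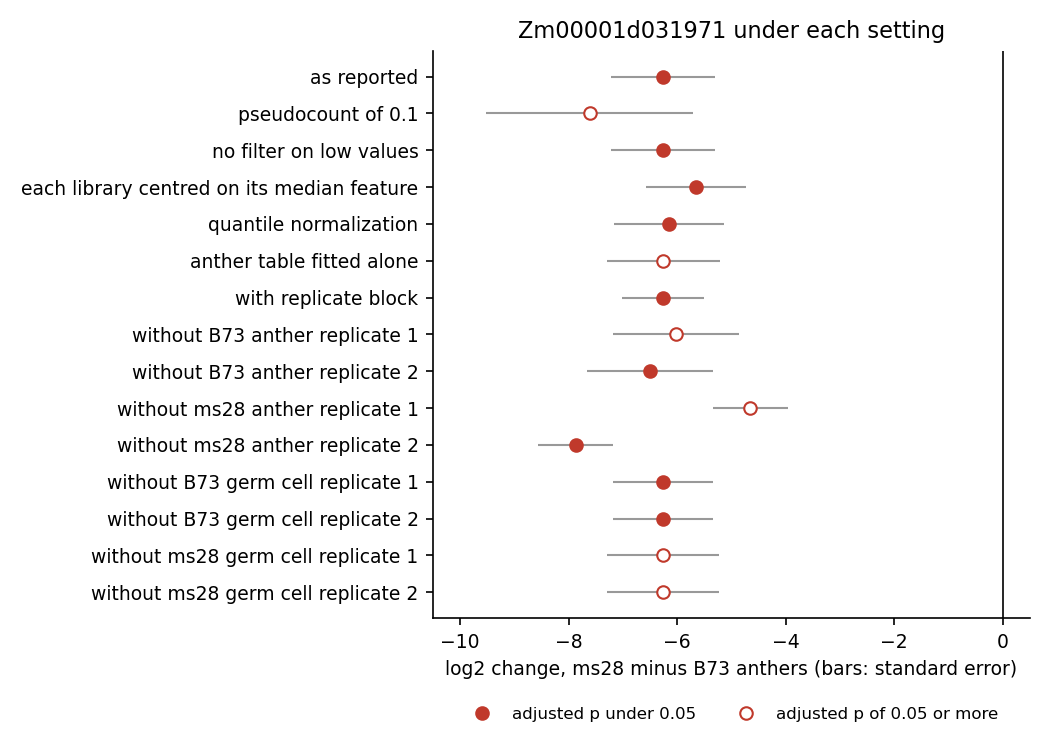
Log2 change of Zm00001d031971, ms28 minus B73 anthers, under each setting. Points are limma estimates on the log2 scale of the setting and bars are their standard errors. Filled points have an adjusted p under 0.05 and open points do not. All 15 estimates lie between -7.87 and -4.65, and 9 of them are filled.

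Set beside the other 66 gene models that met the premeiotic and B73 anther conditions, Zm00001d031971 had the second lowest log2 change, above that of Zm00001d009902. Of the 66, limma called 5 lower (7.58%) and 1 higher (1.52%) in ms28 anthers, against 7.31% and 0.507% of all features, and their median log2 change was -0.55. Both ms28 libraries lay below both B73 libraries in 16 of them (24.2%) and above in 3, against 68.7% and 3.44% of all features, and the groups overlapped in 47. A further measure that sets the gene beside them is the agreement of the B73 anther libraries. Replicate 1 was higher than replicate 2 in 64 of the 66, with a median ratio of 2.88, against 1.40 for Zm00001d031971. Its ratio was the fifth lowest of the 67, which is not a rank of agreement. Below it, Zm00001d002872 (0.26) and Zm00001d003052 (0.36) had the higher value in replicate 2 and lay further apart. Zm00001d052786 (1.12) and Zm00001d035013 (1.25) lay closer together. In the 134 gene models with the same anther and germ cell limits but a premeiotic value of 1 or more, 13 were called lower (9.70%) and 1 higher (0.746%), with a median log2 change of -0.44. The lowest of those was -4.28.

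**Figure D4:**
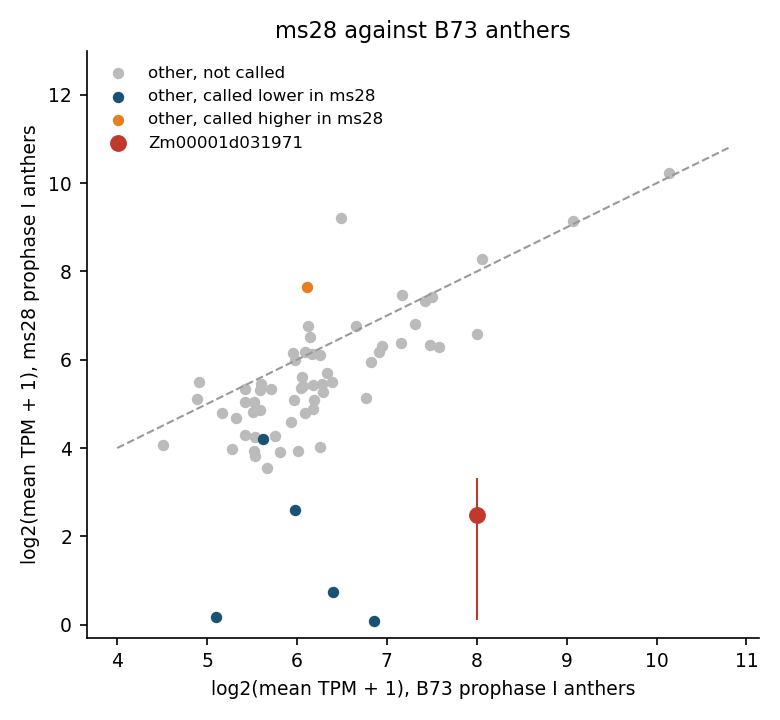
Mean level in ms28 anthers against mean level in B73 anthers for the 67 gene models, both as log2(mean TPM + 1). The dashed line marks equal levels. Dark blue points were called lower, the orange point higher and grey points neither. The red point is Zm00001d031971, and its vertical line joins the 2 ms28 libraries at 0.08 and 9.03 TPM.

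Because a single gene met the definition, the limit in B73 anthers was also set at 10 TPM with the other conditions kept, which left 18 gene models including Zm00001d031971. The second most abundant of them averaged 71.6 TPM in B73 anthers, against 255 TPM for Zm00001d031971. Limma called 12 of the 18 lower in ms28 anthers and 0 higher, a share of 66.7%, and the median log2 change was -2.57. Among the 9910 gene models that met the same B73 anther limit, 8.40% were called lower and 0.232% higher, and the median log2 change was -0.47. Those 9910 were held to no premeiotic or germ cell limit, while the 18 were, in ms28 germ cells too. The germ cell libraries also enter the spread of the fit, so the shares of the 18 and the 9910 are not like for like. In 665 gene models with the same anther and germ cell limits and a premeiotic value of 1 or more, 12.2% were called lower and 0.451% higher. The count of 12 fell to 1 with the anther table fitted by itself, to 3 without ms28 anther replicate 1, to 6 without either ms28 germ cell library, to 8 without ms28 anther replicate 2 and to 8 with centring or quantile normalization. It was 14 without B73 anther replicate 2, a fit in which 19.6% of all features were called lower, against 1.10% without ms28 anther replicate 2. Over the 14 alternative settings the median log2 change of the 18 ran from -2.98 to -1.94. In the fit as reported, 14 of the 18 were lower and 0 higher at an unadjusted p under 0.05, against 37.0% and 1.44% of all fitted features.

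Of the other 17, Zm00001d003482 came next to Zm00001d031971 in the size of its fall. It was listed at 0 in both ms28 anther libraries, against 40.0 and 11.9 TPM in B73 anthers (log2 change -4.52, SE 0.47, adjusted p = 0.00436 by limma). Zm00001d033917 had the smallest adjusted p of the 18, with 1.13 and 1.11 TPM in ms28 anthers, against 29.2 and 17.6 TPM in B73 anthers (log2 change -3.48, SE 0.28, adjusted p = 0.00106 by limma). Zm00001d010052 was listed at 0 and 1.15 TPM in ms28 anthers, against 17.9 and 24.98 TPM in B73 anthers. Its higher ms28 anther value was in replicate 2, as in Zm00001d031971 and in most of the 18. Zm00001d018508 moved the other way without a call, at 33.6 and 9.04 TPM in ms28 anthers, against 10.1 and 11.5 TPM in B73 anthers. These 4 were picked after their values were seen.

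**Figure D5:**
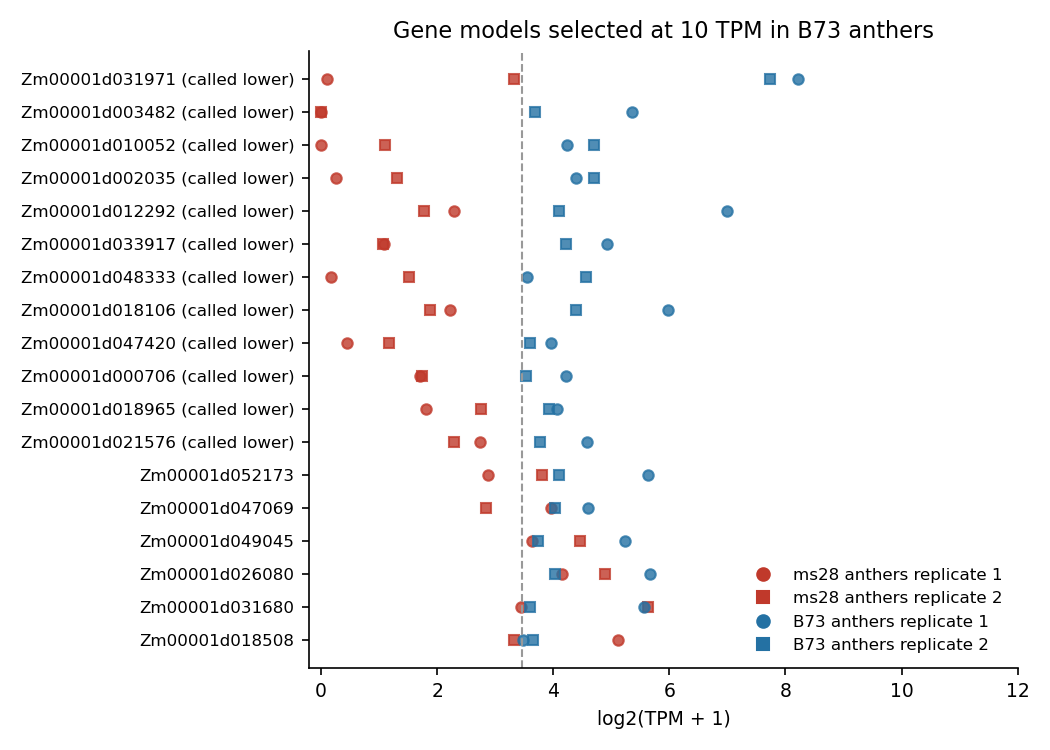
Anther levels of the 18 gene models selected with a limit of 10 TPM in B73 anthers. The x axis is log2(TPM + 1), red marks are ms28 and blue marks B73, circles are replicate 1 and squares replicate 2, and the dashed line marks 10 TPM. Rows run from the lowest log2 change at the top. In the 12 upper rows, called lower, all red marks lie left of both blue marks. Such separation held for 14 of the 18 (77.8%), against 68.5% of the 9910 gene models with the same anther limit and 68.7% of all fitted features.

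The profile of Zm00001d031971 over the 8 prophase I libraries was then set against those of 20866 other gene models, by the Euclidean distance of log2(TPM + 1) values. This measure was chosen after the values were seen. The closest was Zm00001d044662 at a distance of 4.10, with 1.31 and 10.4 TPM in ms28 anthers, 93.3 and 135 TPM in B73 anthers, 0.814 and 1.31 TPM in ms28 germ cells and 3.44 and 22.2 TPM in B73 germ cells. Next came Zm00001d017782, with 0.1 and 12.9 TPM in ms28 anthers, against 57.1 and 121 TPM in B73 anthers. The third, Zm00001d003052, belongs to the 66 and read 0.04 and 10.1 TPM in ms28 anthers, against 33.0 and 91.4 TPM in B73 anthers. All of these were higher in replicate 2 than in replicate 1 in ms28 anthers and in B73 germ cells, as Zm00001d031971 was. They were picked for closeness over these same libraries, so this likeness follows in part from the choice. Before meiosis Zm00001d044662 had deposited values of 6.29 and 7.54 and Zm00001d017782 of 2.06 and 2.79, above the premeiotic limit. Those of Zm00001d003052 were 0.173 and 0.223. In B73 anthers Zm00001d044662, Zm00001d017782 and Zm00001d003052 were higher in replicate 2 too, where Zm00001d031971 was not. The fourth closest, Zm00001d014840, was higher in replicate 1 there, at 91.5 and 35.3 TPM. The fifth, Zm00001d014341, was higher in replicate 2, at 17.8 and 62.4 TPM. From the closest to the fifth, the Pearson correlations with Zm00001d031971 were 0.940, 0.902, 0.924, 0.962 and 0.949 over 8 libraries from 4 groups. Of the 20866 gene models, 593 (2.84%) had a correlation above 0.9.

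Gene models with nearby identifier numbers did not share the profile. Within 10 numbers of Zm00001d031971 the tables list 16 others, of which 10 are in all 3 tables. Their log2 changes between ms28 and B73 anthers ran from -0.72 to 0.12. Limma called 0 of the 10, against 7.31% lower and 0.507% higher over all fitted features, so a count of 0 in 10 does not stand out. At an unadjusted p under 0.05 there were 3, all lower in ms28, where 37.0% of all fitted features were. The number below, Zm00001d031970, stood at 4.07 and 5.54 TPM in ms28 anthers, against 6.27 and 6.65 TPM in B73 anthers. The number above, Zm00001d031972, is listed at 0 in both premeiotic libraries and is not listed in the prophase I tables. All 6 that are outside the anther table had premeiotic values of at most 0.162.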

How the data were processed

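The 3 deposited tables give 1 value per feature and library. The submitters' processing notes name the build B73 RefGen_v4 and, with no roles, DESeq2, featureCounts 2.0.1, HISAT2 2.2.1, Trimmomatic 0.33 and Cufflinks. The prophase I anther and germ cell tables hold TPM as deposited. The headers name no unit, and TPM was read from the column sums, 99.1 to 99.4% of the total that TPM has by definition. The authors' premeiotic table sums to 83.0 and 83.2% of it, its unit is not stated, and it was compared with the others through the stated limits and by rank only. TPM keeps no sequencing depth, so no counting interval is given. Columns were matched to libraries by the header lines and the stage and tissue in each table's name, with WT read as B73.

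Limma-trend (limma 3.58.1, R 4.3.3) was run on log2(TPM + 1) of all 8 prophase I libraries, each group having its own coefficient, without a replicate block. Of 22402 shared features, 20892 reached 1 TPM in 2 or more libraries and entered the fit. Zm00001d031971 reached 1 TPM in both B73 anther libraries and in replicate 2 of ms28 anthers and of B73 germ cells. A call is a Benjamini-Hochberg adjusted p under 0.05. A log2 change on this scale understates the change of low features. The fit was tested on simulated data. The definition, the comparisons and the alternatives were chosen with earlier results of these data known. The naming rule took the most abundant members, those called with the smallest adjusted p, those with the largest and smallest change, members whose identifier numbers differ by 1 and the gene models just outside each limit. With 1 member all its parts name Zm00001d031971 or its edges, and other gene models were named after their values were seen. Of the marker symbols, 2 of the 6 of the small RNA pathway, the MIR2118 and MIR2275 loci, matched features, and these loci were not analysed here. Other software was matplotlib 3.10.9, numpy 2.4.6, pandas 2.3.3 and Python 3.11.15.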

Additional observations from a re-analysis of the deposited data

How the results depend on the processing

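Alternatives that kept the anther values as they were could not alter the log2 change of Zm00001d031971 between ms28 and B73 anthers. It was negative under all 14 alternatives. It stayed called under 8 (adjusted p from 0.00471 to 0.0293) and missed the threshold under 6 (0.0502 to 0.0946). The number of members called lower, 1 as reported, was 0 with a pseudocount of 0.1 and with the anther table fitted alone, and ran from 0 to 1 when 1 library was left out. The cause was not tested. Leaving out 1 library gave log2 changes from -7.87 to -4.65. With the replicate number as a block the log2 change was -6.26 (SE 0.75, adjusted p = 0.0148), and the count of all features called lower was 956 in place of 1527. The correlation of the replicate differences between ms28 and B73 anthers was -0.081 over 20892 features, so the numbers were not taken to pair the libraries.

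The number of gene models meeting the definition, 1, was 0 with a premeiotic limit of 0.5, 5 with 2, 18 with an anther limit of 10 TPM, 0 with a germ cell limit of 2 TPM and 10 with 10 TPM. It was 9 with the germ cell condition on ms28 alone and 4 on B73 alone, and from 1 to 37 with the definition applied without each of its libraries in turn. The conditions on ms28 or B73 alone and without single libraries were chosen after seeing the data. The median log2 change was -1.79 for the 5, -2.57 for the 18 and -1.40 for the 10. With the germ cell condition on ms28 alone it was -4.04 for the 9, and on B73 alone -1.37 for the 4. The median thus moved with the germ cell libraries that the condition used. No median could be given where 0 gene models were left. Over all fitted features, 1527 lower and 106 higher calls became 122 and 185 with centring, 170 and 148 with quantile normalization and 50 and 17 with the anther table alone. Without 1 library the lower calls ran from 40 to 4040 and the higher calls from 19 to 201. With 2 libraries a group and no counts, values near 0 TPM are of unknown precision.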

Other observations

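Zm00001d026336 met every condition except the germ cell limit in ms28. It stood at 8.22 and 6.42 TPM in ms28 germ cells, against 0.529 and 0.357 TPM in B73 germ cells. In anthers it stood at 55.5 and 33.0 TPM in ms28, against 38.3 and 20.01 TPM in B73, where the groups overlapped (log2 change 0.61, SE 0.35, adjusted p = 0.217 by limma). It was 1 of 3 gene models among the 66 that lay below 5 TPM in both B73 germ cell libraries and not in both ms28 ones. The opposite, below 5 TPM in both ms28 germ cell libraries and not in both B73 ones, held for 8. Zm00001d002872 was below 5 TPM in 3 of the 4 germ cell libraries, and stood at 918 and 261 TPM in ms28 anthers, against 36.7 and 141 TPM in B73 anthers (log2 change 2.74, SE 0.84, adjusted p = 0.0681 by limma). These gene models were picked after their values were seen, and the germ cell differences were not tested.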
